A study of Homo sapiens with 4 samples.

Results

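The 7 genes described here encode the FOS and JUN proteins of the transcription factor AP-1, namely FOS, FOSB, FOSL1 and FOSL2 of the FOS family and JUN, JUNB and JUND of the JUN family. They were chosen by symbol among the 58174 genes measured, through GENCODE release 29, and 6 of them had enough reads to be tested among 18984 genes. RNA was sequenced from 2 NIPBLmut and 2 NIPBLwt libraries of 293FT cells, a fast-growing derivative of the HEK293 line that carries the SV40 large T antigen. NIPBL encodes the protein that loads cohesin onto chromosomes, and Cornelia de Lange syndrome and CHOPS syndrome are named in the title of the series. Both genotypes share the same line and growth medium with fetal bovine serum, which itself carries growth factors. The labels give neither the kind of NIPBL mutation nor the number of clones, so differences between the genotypes and differences between clones cannot be told apart.

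AP-1 is a dimer of basic leucine zipper proteins. FOS proteins bind DNA only with a partner, usually a JUN protein, whereas JUN proteins also pair with each other and with members of the ATF and MAF groups. FOS, FOSB, JUN and JUNB are immediate early genes, whose transcription is switched on within minutes by serum, growth factors or stress through MAP kinases and through factors already present in the cell. Their messages are short-lived, while JUND is transcribed more steadily in many cell types.

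The start regions of FOS, FOSB, FOSL2, JUN and JUND hold matches to sites of the CREB and ATF group, while that of JUNB holds no such match. Any part of these sites in the differences between genotypes was not tested. RefSeq windows of 250 bases before the start (GRCh38.p14) were read for 6 of the 7 genes, all but FOSL1. RefSeq and GENCODE starts differ for some genes. GENCODE 29 exons cover all 250 bases of the JUN window, so the JUN site printed here lies inside the annotated gene. They also cover 54 bases of the FOS and 35 bases of the FOSL2 window. Windows of 30 bases around each match are written 5′ to 3′ on the gene's strand. Capitals mark the CRE core TGACGT, read on either strand (ACGTCA is its reverse complement), or its overlapping pair TGACGTCA in JUND. In JUN they mark the related site TGACATCA, which JUN and ATF2 dimers are known to bind.
FOS, chr14:75278752-75278781, plus strand: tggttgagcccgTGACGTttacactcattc
FOSB, chr19:45467924-45467953, plus strand: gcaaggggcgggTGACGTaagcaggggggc
FOSL2, chr2:28392780-28392809, plus strand: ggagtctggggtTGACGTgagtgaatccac
JUN, chr1:58784096-58784125, minus strand: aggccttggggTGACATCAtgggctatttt
JUND upstream site, chr19:18281804-18281833, minus strand: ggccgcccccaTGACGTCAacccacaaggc
JUND site nearer the start, chr19:18281692-18281721, minus strand: tgcaaatgagcgACGTCAcccgcacccaat

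The CRE core lay at nearly the same distance from the RefSeq start in FOS (-64 to -59), FOSB (-60 to -55) and FOSL2 (-66 to -61), and the JUN site lay at -67 to -60. JUND held a match at -200 to -193 on both strands and another at -87 to -82 on the minus strand. Over all 35116 RefSeq windows of this length, 7.1% held TGACGT and 2.37% held TGACATCA on either strand. A TATAAA box, present in 10.7% of all windows, lay at -33 to -28 in FOS, at -30 to -25 in FOSB and at -31 to -26 in JUNB. A CCAAT box, present in 32.0% of all windows, lay at -87 to -83 in JUN, -67 to -63 in JUNB and -74 to -70 in JUND, and the GC box GGGCGG, present in 42.6%, was found in 5 of the 6 windows, all but JUNB. The AP-1 site TGAGTCA (4.2% of all windows) and the CArG box bound by serum response factor (1.16%) were not among the letters of these 6 windows. The well-known serum response element of FOS lies further upstream than the window reaches. A match describes letters and is not evidence of binding.

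The FOS and FOSB windows are given at greater length, as examples. Both hold the core in the same orientation at nearly the same place, as does FOSL2, whose window is not printed at length. Only the stretch outside GENCODE 29 exons is printed, which for FOS ends at -55, before its TATAAA box, and for FOSB at -2. Capitals mark TGACGT and, in FOSB, also TATAAA.
FOS, chr14:75278578-75278773, plus strand: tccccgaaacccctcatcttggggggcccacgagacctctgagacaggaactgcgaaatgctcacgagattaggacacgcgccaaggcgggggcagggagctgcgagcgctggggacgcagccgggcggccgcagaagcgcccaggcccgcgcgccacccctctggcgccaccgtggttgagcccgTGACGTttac
FOSB, chr19:45467746-45467994, plus strand: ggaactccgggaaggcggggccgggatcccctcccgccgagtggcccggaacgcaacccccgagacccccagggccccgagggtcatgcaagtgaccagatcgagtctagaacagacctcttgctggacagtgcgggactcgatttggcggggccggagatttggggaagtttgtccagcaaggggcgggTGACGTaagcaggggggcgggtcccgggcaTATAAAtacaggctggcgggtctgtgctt

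The libraries were of similar depth. Expected counts, which are estimates of the reads per gene, summed to 31932304 and 32768728 in NIPBLmut replicates 1 and 2 and to 31545743 and 33161120 in NIPBLwt replicates 1 and 2. The NIPBLmut libraries were close to each other, with a chi-square per gene of 3.97, and the NIPBLwt libraries lay further apart, at 44.6 (1 for sampling noise alone). NIPBL itself had 61.0 and 62.0 CPM in NIPBLmut and 41.8 and 44.5 CPM in NIPBLwt, where CPM are counts scaled for depth and library composition by TMM. Its log2 fold change of 0.51 was not called by edgeR (adjusted p = 0.057), and with the mutation unstated it is no check of which library is mutant. The 11 markers of the HEK293 line all had enough reads to be tested and summed to 335 and 318 TPM in NIPBLmut and 378 and 408 TPM in NIPBLwt. PAX2 was sparse, at 0.680 and 0.546 CPM in NIPBLmut and 0.645 and 0.268 CPM in NIPBLwt. Of the 11 markers KRT8 was called higher (0.83) and NEFM (-5.98), LIN28B (-1.20) and VIM (-0.60) lower on the log2 scale. The call of LIN28B was lost without NIPBLmut replicate 2 (-1.15). It was also lost after the median of its neighbouring genes was subtracted (-1.04, edgeR adjusted p = 0.0554). Without NIPBLmut replicate 1 or replicate 2 the calls of KRT8 (0.78 and 0.87) and VIM (-0.63 and -0.58) were lost. VIM was called in 7 of 14 alternative settings. The 10 markers of fibroblasts, 6 of them tested, summed to 8.86 and 9.05 TPM in NIPBLmut and 4.97 and 3.5 TPM in NIPBLwt, with COL1A2 and FAP at 0 in all libraries, PDGFRB (2.81) and LUM (1.84) called higher and COL3A1 (-2.03) lower. LUM was not called without NIPBLmut replicate 1 or replicate 2 (1.815 and 1.858), nor COL3A1 without replicate 1 (-1.83). COL3A1 was called in 8 of 14 alternative settings. The 8 of blood cells, 2 of them tested, summed to 1.76 and 2.24 TPM in NIPBLmut and 0.57 and 0.7 TPM in NIPBLwt, with CD3E, MS4A1 and HBB at 0 throughout and AIF1 (3.23) called higher, though not without NIPBLmut replicate 2 (adjusted p = 0.053). TPM are transcript abundances per length, and the part of these markers in the results below was not tested.

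FOS and JUN, the founding members of both families, rose in NIPBLmut. FOS was 2.84-fold and JUN 1.53-fold higher, and both passed the test, called at an edgeR quasi-likelihood p under 0.05 after Benjamini-Hochberg adjustment over all tested genes. JUND, at 1.64-fold, and FOSB, at 2.16-fold, had NIPBLmut levels above both NIPBLwt libraries but did not pass. FOSL2 and JUNB overlapped between the genotypes, and FOSL1 was near the limit of detection. In bulk RNA, a larger share of cells with an active gene and more RNA per cell cannot be told apart.

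In all, 2 of the 6 tested genes were called higher, beside 3.71% of all tested genes, and 0 were called lower, beside 2.1% of all tested genes. DESeq2 called 3 higher, beside 6.82% of all tested genes, and limma 3, beside 4.31%, while 4 were higher at an unadjusted p under 0.05, beside 15.9%. In each of these 0 were lower, beside 6.35%, 0.627% and 13.8% of all tested genes. The groups did not overlap, with NIPBLmut higher, for 4 of the 6 (FOS, FOSB, JUN and JUND), beside 32.3% of all tested genes. The median log2 fold change was 1.11 over the 3 tested genes of the FOS family and 0.61 over the 3 of the JUN family, against -0.006 over all tested genes. Without NIPBLmut replicate 1 the members called higher numbered 1, beside 2.14% of all tested genes, and without NIPBLmut replicate 2 they numbered 0, beside 1.78%. They numbered 4 without NIPBLwt replicate 1 (FOS, FOSB, JUN and JUND) or replicate 2 (FOS, JUN, JUNB and JUND), in fits whose spread comes from the close NIPBLmut pair alone. Those fits called 31.4% and 22.8% of all tested genes higher.

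**Figure D1:**
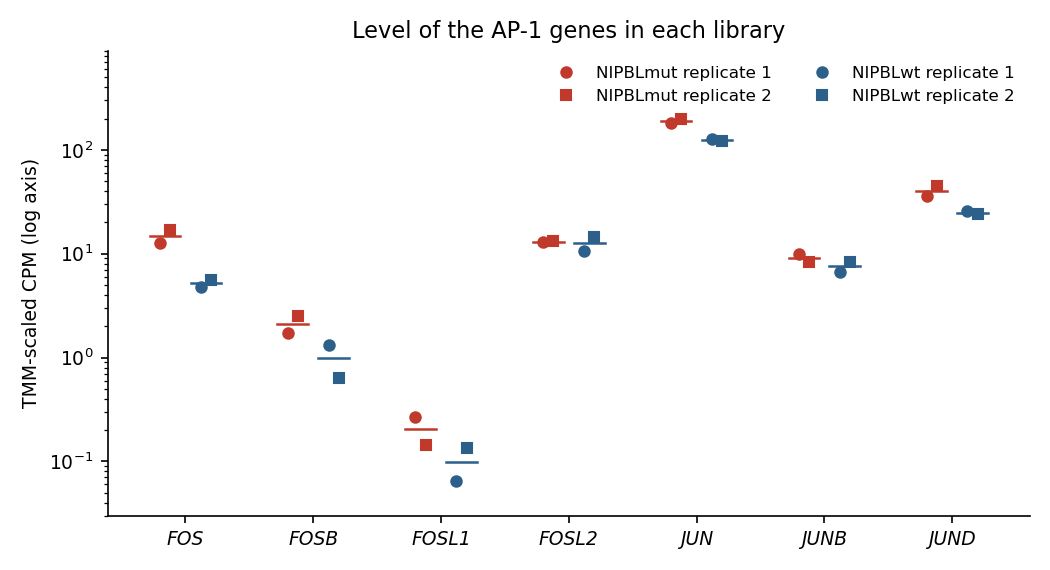
Level of each AP-1 gene in TMM-scaled CPM (log axis), with NIPBLmut libraries in red on the left and NIPBLwt libraries in blue on the right of each gene. Points are libraries and bars are group means (n = 2). JUN is the most abundant by reads, FOSL1 lies near 0.1 CPM, and the genotypes overlap for FOSL2 and JUNB.

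FOS (ENSG00000170345, chromosome 14, 75278774 to 75282230, plus strand) encodes c-Fos, the founding member of the family. It had 12.6 and 16.8 CPM in NIPBLmut replicates 1 and 2, against 4.74 and 5.59 CPM in NIPBLwt replicates 1 and 2. Both NIPBLmut libraries lay more than 2 times above the higher NIPBLwt library, and replicate 2 was the highest of all. The means were 14.7 ± 2.95 CPM in NIPBLmut and 5.16 ± 0.602 CPM in NIPBLwt (SD, n = 2 each). FOS thus had a log2 fold change of 1.51 (SE 0.215, edgeR adjusted p = 0.0322). Set against each NIPBLwt library alone, the mean NIPBLmut level was higher by 1.61 (replicate 1) and 1.37 (replicate 2) on the log2 CPM scale. Around FOS, the nearest 25 tested protein-coding genes to either side had a median of 0.22 in log2 fold change. After that median was subtracted FOS still passed, at 1.29 (adjusted p = 0.0468). Without NIPBLmut replicate 2, the fold change was 1.29 and the call was lost (adjusted p = 0.0927).

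FOSB (ENSG00000125740, chromosome 19, 45467995 to 45475179, plus strand) encodes a close relative of c-Fos. It was sparse, with 1.72 and 2.53 CPM in NIPBLmut and 1.32 and 0.636 CPM in NIPBLwt, so the genotypes did not overlap but NIPBLwt replicate 1 came near. Its log2 fold change was 1.11 (SE 0.44) and was not called (edgeR adjusted p = 0.167). Against NIPBLwt replicate 1 alone the difference was 0.63 and against replicate 2 it was 1.62, and without NIPBLwt replicate 1 the fit called FOSB at 1.73. FOSB overlaps ERCC1 on the opposite strand, and the pair shares 0 exonic bases.

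FOSL1 (ENSG00000175592, chromosome 11, 65892049 to 65900573, minus strand) encodes Fra-1, a FOS protein often abundant in cells with active MAP kinase signalling. Its counts were 9 and 5 in NIPBLmut and 2 and 4 in NIPBLwt, too few to enter the test. The depth-scaled ratio of the summed counts was 2.07, with an exact 95% interval of 0.748 to 6.58 that covers counting error only, so no difference was detectable at this depth.

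FOSL2 (ENSG00000075426, chromosome 2, 28392448 to 28417312, plus strand) encodes Fra-2. Its reads were alike in the genotypes, with 12.9 and 13.2 CPM in NIPBLmut and 10.7 and 14.5 CPM in NIPBLwt. The NIPBLmut libraries fell between the NIPBLwt libraries, and they differed by a log2 fold change of 0.05 (SE 0.19, edgeR adjusted p = 0.88). Per length the picture differed, since FOSL2 had 3.46 and 3.57 TPM in NIPBLmut and 2.23 and 2.11 TPM in NIPBLwt, with no overlap. The effective length, which weights the gene's 4 annotated transcripts of 393 to 6708 bases by their estimated share, was 3243 and 3210 bases in NIPBLmut against 3724 and 5083 bases in NIPBLwt. With effective lengths as offsets the log2 fold change became 0.51 (SE 0.16, edgeR adjusted p = 0.112), also not called. Genes around FOSL2 had a median of 0.39, and after subtracting it FOSL2 stood at -0.34 (adjusted p = 0.312). An intronic RNA on the same strand and an antisense RNA lie within the gene, and neither shares exonic bases with it.

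**Figure D2:**
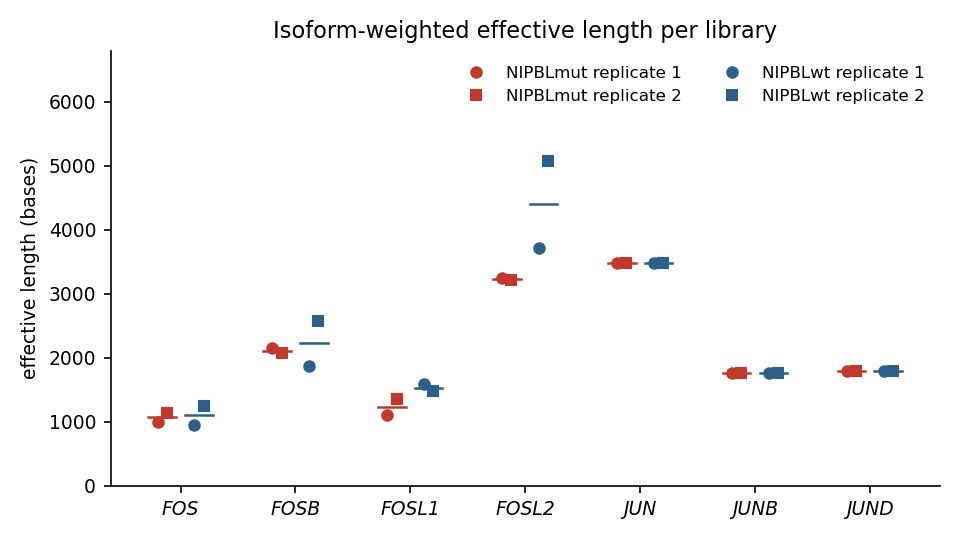
Effective length in bases of each AP-1 gene in each library, with NIPBLmut in red on the left and NIPBLwt in blue on the right, and bars at group means (n = 2). FOSL2 is shorter in both NIPBLmut libraries, at 3243 and 3210 bases, than in both NIPBLwt libraries, at 3724 and 5083 bases, while JUN and JUNB, each with 1 annotated transcript, have the same length in all 4.

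Among the other FOS genes the estimated lengths overlapped between genotypes for FOS, with 998 and 1135 bases in NIPBLmut and 951 and 1244 bases in NIPBLwt, and for FOSB. For FOSL1, which rests on few counts, they were 1100 and 1349 bases in NIPBLmut and 1582 and 1475 bases in NIPBLwt, without overlap. FOS has 10 and FOSB 13 transcripts in the tables, so the assignment of reads to isoforms enters their TPM. JUN and JUNB have 1 transcript each and JUND has 2, and their lengths were nearly the same in every library.

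JUN (ENSG00000177606, chromosome 1, 58780788 to 58784327, minus strand) encodes c-Jun, which activates its own gene through the site printed above. It was the most abundant of the 7 genes, with 180 and 199 CPM in NIPBLmut and 127 and 121 CPM in NIPBLwt. The genotypes were well separated and each pair was tight, at 190 ± 13.3 CPM in NIPBLmut and 124 ± 3.98 CPM in NIPBLwt (SD, n = 2 each). JUN had a log2 fold change of 0.61 (SE 0.12, edgeR adjusted p = 0.0471). The mean NIPBLmut level exceeded NIPBLwt replicate 1 by 0.58 and replicate 2 by 0.65 on the log2 scale. Genes around JUN moved the other way, with a median of -0.26. The call lay close to the threshold: it was lost with RLE scaling (0.61, adjusted p = 0.0508), without NIPBLmut replicate 1 (0.68, adjusted p = 0.285) and without replicate 2 (0.54, adjusted p = 0.497).

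JUND (ENSG00000130522, chromosome 19, 18279760 to 18281622, minus strand) encodes the JUN protein that is often most evenly expressed. It had 36.2 and 45.0 CPM in NIPBLmut, against 25.6 and 23.9 CPM in NIPBLwt. Both NIPBLmut libraries were higher than both NIPBLwt libraries, though they differed from each other by more than the NIPBLwt pair did. The log2 fold change of 0.71 (SE 0.15) was larger than that of JUN and narrowly missed the threshold (edgeR adjusted p = 0.0549). Over 14 alternatives its fold change stayed between 0.55 and 0.89 and was called in 8, among them DESeq2 (adjusted p = 0.00765). It was called without NIPBLwt replicate 1 (0.77) and without NIPBLwt replicate 2 (0.67), in fits whose spread comes from the close NIPBLmut pair alone. It was not called without NIPBLmut replicate 1, nor without NIPBLmut replicate 2.

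JUNB (ENSG00000171223, chromosome 19, 12791496 to 12793315, plus strand) encodes a JUN protein that in many settings restrains c-Jun. It had 10.0 and 8.24 CPM in NIPBLmut and 6.67 and 8.4 CPM in NIPBLwt, so NIPBLmut replicate 2 lay just below NIPBLwt replicate 2. The log2 fold change of 0.28 (SE 0.21) was not called (edgeR adjusted p = 0.417), except without NIPBLwt replicate 2 (0.45, adjusted p = 0.0112). JUNB shares 259 exonic bases with HOOK2 on the opposite strand, and whether the counting told strands apart is not given in the sources used here. HOOK2 had 24.9 and 25.5 CPM in NIPBLmut and 21.2 and 19.7 CPM in NIPBLwt.

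**Figure D3:**
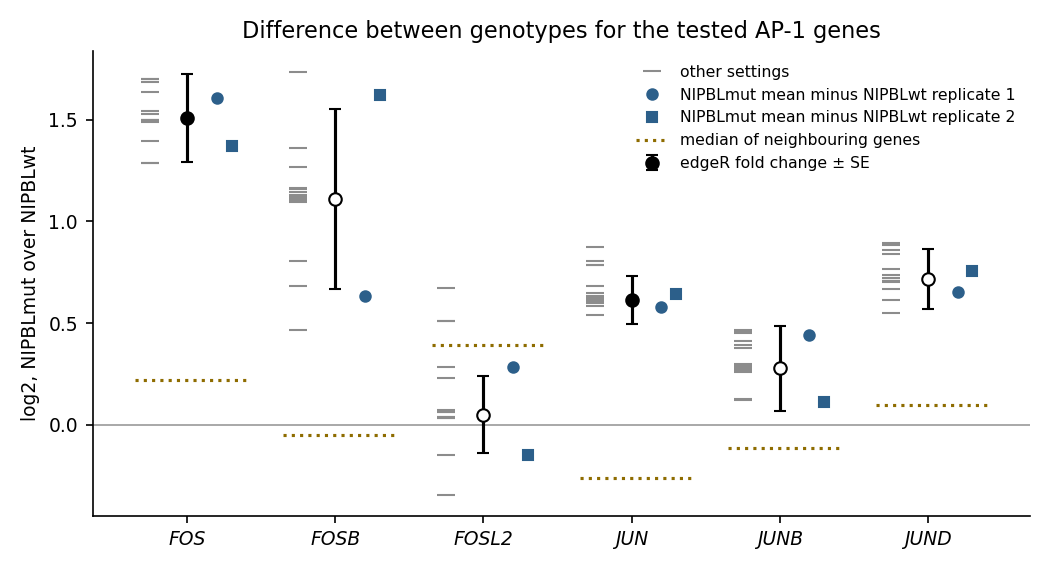
Log2 fold change (NIPBLmut over NIPBLwt) of the 6 tested AP-1 genes with its standard error, filled where called, beside the mean NIPBLmut log2 CPM minus each NIPBLwt library (blue), the value under each other setting (grey dashes) and the median of the neighbouring genes (dotted). FOS at 1.51 and JUN at 0.61 are called, JUND at 0.71 and FOSB at 1.11 are not, and FOSL2 spans 0.

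Levels between genes were compared per length, in the deposited TPM. In NIPBLmut the order from high to low was JUN (47.5 ± 3.39 TPM), JUND (19.6 ± 3.01 TPM), FOS (11.9 ± 1.34 TPM), JUNB (4.53 ± 0.622 TPM), FOSL2 (3.52 ± 0.0778 TPM), FOSB (0.875 ± 0.262 TPM) and FOSL1 (0.15 ± 0.0849 TPM), as means ± SD of 2 libraries. No neighbours in that order overlapped. In NIPBLwt it began again with JUN (27.1 ± 1.73 TPM) and JUND (10.5 ± 0.813 TPM). There FOS (3.87 and 3.34 TPM) and JUNB (2.95 and 3.55 TPM) overlapped, and whether that differs from the order in NIPBLmut was not tested. FOSL2 (2.17 ± 0.0849 TPM), FOSB (0.365 ± 0.262 TPM) and FOSL1 (0.05 ± 0.0283 TPM) were again the lowest.

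Summed over the family, FOS RNA was 15.3 and 17.6 TPM in NIPBLmut and 6.68 and 5.7 TPM in NIPBLwt, a ratio of means of 2.66. JUN family RNA was 67.5 and 75.7 TPM in NIPBLmut and 42.3 and 39.4 TPM in NIPBLwt, a ratio of 1.75. Both sums were higher in both NIPBLmut libraries. With 2 libraries against 2 the smallest two-sided exact permutation p is 0.333, so no test was made. The TPM scale itself places the median gene higher in NIPBLmut, by 0.12 for log2(TPM + 1) and by 0.18 for log2(TPM + 0.1). The JUN family difference of 0.81 and the FOS family difference of 1.41 are on the log2 TPM scale with no added constant. They are to be read against that shift. In summed CPM the log2 differences were 0.61 for JUN genes and 0.68 for FOS genes, where the reads of the long FOSL2 transcripts weigh more.

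On the TPM scale, the share of FOS in its family did not overlap between genotypes, while that of JUN did. FOS supplied 71.6% and 73.2% of its family's TPM in NIPBLmut, against 57.9% and 58.6% in NIPBLwt, and FOSL2 22.6% and 20.3% against 33.4% and 37.0%. JUN supplied 66.7% and 65.8% of its family's TPM in NIPBLmut and 66.9% and 65.8% in NIPBLwt. The ratio of JUN to FOS family TPM was 4.40 and 4.30 in NIPBLmut, below the 6.34 and 6.90 in NIPBLwt. In CPM the same ratio was 8.24 and 7.73 in NIPBLmut and 9.45 and 7.37 in NIPBLwt, which overlap, so the separation was seen per length and not in reads. RNA levels do not give the amounts of protein.

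**Figure D4:**
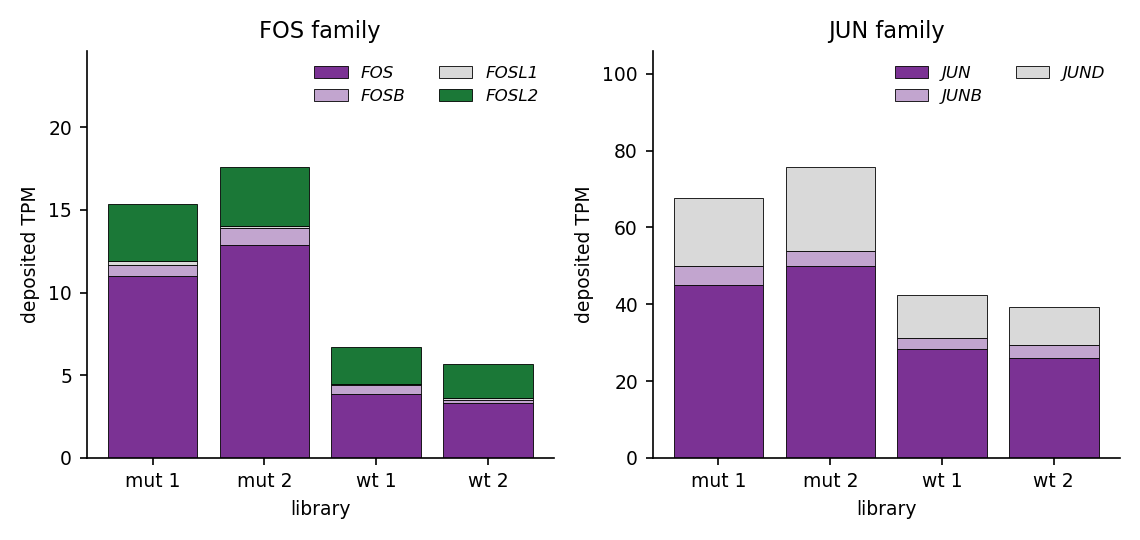
Deposited TPM of the FOS family (left) and JUN family (right), stacked by gene, in each library, with NIPBLmut replicates (mut) left of NIPBLwt replicates (wt) and the TPM axis starting at 0. The FOS family totals 15.3 and 17.6 TPM in NIPBLmut and 6.68 and 5.7 TPM in NIPBLwt, and FOS makes up most of it.

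The lists from here on were chosen with earlier results of these data known, so their counts are descriptions and no test. Of 15 listed leucine zipper partners outside the 2 families, 14 were tested. The log2 fold change was above 0 for 11 of them, and for 9 NIPBLmut lay above NIPBLwt with no overlap, beside 32.3% of all tested genes. The median log2 fold change was 0.34. At an unadjusted p under 0.05 there were 4 higher, beside 15.9% of all tested genes, by DESeq2 1, beside 6.82%, and by limma 0, beside 4.31%. At that unadjusted p 1 was lower, beside 13.8%, by DESeq2 1, beside 6.35%, and by limma 0, beside 0.627%. By edgeR 0 were called higher, beside 3.71% of all tested genes, and 1 lower, beside 2.1%. The lower one was ATF2, the partner that JUN uses at its own start site, with 44.9 and 41.9 CPM in NIPBLmut and 74.9 and 77.8 CPM in NIPBLwt (log2 fold change -0.81, edgeR adjusted p = 0.0303). Genes around ATF2 had a median of -0.56, and after subtracting it ATF2 stood at -0.26 and was no longer called (adjusted p = 0.223). It was also not called without NIPBLmut replicate 1 (-0.87, adjusted p = 0.144) or replicate 2 (-0.77, adjusted p = 0.235). Another partner of JUN, the stress-induced ATF3, which was named after its level was known, had 58.2 and 74.5 CPM in NIPBLmut and 35.8 and 21.3 CPM in NIPBLwt (1.22, edgeR adjusted p = 0.0611). It did pass without NIPBLmut replicate 1 (1.38) and without NIPBLwt replicate 1 (1.64) or replicate 2 (0.89).

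Kinases and factors that act on FOS and JUN are described next. All 24 listed genes of the RAS, RAF and MAP kinase cascades were tested. The 1 called higher was MAPK13, the p38 delta kinase, with 8.28 and 8.10 CPM in NIPBLmut and 2.93 and 3.05 CPM in NIPBLwt (log2 fold change 1.45, edgeR adjusted p = 0.0294). MAPK13 was not called without NIPBLmut replicate 1 (1.44, adjusted p = 0.102) or replicate 2 (1.47, adjusted p = 0.0973). The 1 of 24 called higher stands beside 3.71% of all tested genes. By edgeR 0 of the cascade genes were lower, beside 2.1% of all tested genes. At an unadjusted p under 0.05 there was 1 lower, beside 13.8%, by DESeq2 0, beside 6.35%, and by limma 0, beside 0.627%. At that unadjusted p 1 was higher, beside 15.9%, by DESeq2 1, beside 6.82%, and by limma 1, beside 4.31%. The list median was -0.021.

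All 12 listed factors known to act on the FOS or JUN start regions were tested. Of these 0 were higher at an unadjusted p under 0.05, beside 15.9% of all tested genes, by DESeq2, beside 6.82%, or by limma, beside 4.31%. At that unadjusted p 3 were lower, beside 13.8%, by DESeq2 2, beside 6.35%, and by limma 0, beside 0.627%. By edgeR 0 were higher, beside 3.71% of all tested genes, and 2 were lower, beside 2.1%. CREB1, which binds the CRE, had 43.5 and 44.9 CPM in NIPBLmut and 64.9 and 71.4 CPM in NIPBLwt (-0.62, adjusted p = 0.0446). MEF2C, of the family that binds the JUN start region, had 11.0 and 10.8 CPM in NIPBLmut and 18.7 and 25.7 CPM in NIPBLwt (-1.02, adjusted p = 0.0449). The genes around CREB1 had a median of -0.46. After subtracting it, CREB1 stood at -0.17 and was not called (edgeR adjusted p = 0.397). Those around MEF2C had a median of -0.068. With that subtracted, MEF2C stood at -0.96 and was also not called (edgeR adjusted p = 0.0651). Without NIPBLmut replicate 1 or replicate 2, CREB1 had adjusted p = 0.381 and 0.362 (edgeR) and MEF2C 0.106 and 0.132. Serum response factor, SRF, had 37.9 and 40.0 CPM in NIPBLmut, between the 32.2 and 46.3 CPM of NIPBLwt.

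Of 8 genes for turnover of AP-1 proteins, all tested, SENP2, a SUMO protease, was called higher, at 140 and 139 CPM in NIPBLmut and 68.1 and 81.2 CPM in NIPBLwt (0.90, edgeR adjusted p = 0.0335). Its neighbours had a median of 0.73, and after subtracting it SENP2 stood at 0.18 (adjusted p = 0.437). SENP2 was not called without NIPBLmut replicate 1 (adjusted p = 0.108) or replicate 2 (adjusted p = 0.109). The 1 turnover gene called higher by edgeR stands beside 3.71% of all tested genes. The count higher was also 1 at an unadjusted p under 0.05, beside 15.9%, by DESeq2, beside 6.82%, and by limma, beside 4.31%. By edgeR 0 turnover genes were lower, beside 2.1% of all tested genes. At an unadjusted p under 0.05 there were 2 lower, beside 13.8%, by DESeq2 1, beside 6.35%, and by limma 0, beside 0.627%.

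Genes known as AP-1 targets in other cells were split. Of 24 listed, 16 were tested, with a median of 0.29. The list was chosen with earlier results of these data known, so its counts are no test of AP-1 activity. By edgeR 3 were called higher, beside 3.71% of all tested genes, and 0 lower, beside 2.1%. At an unadjusted p under 0.05 there were 6 higher, beside 15.9%, and 1 lower, beside 13.8%. DESeq2 called 5 higher, beside 6.82%, and 1 lower, beside 6.35%. By limma 4 were higher, beside 4.31%, and 0 lower, beside 0.627%. The collagenase gene MMP1 and the stromelysin gene MMP3, the textbook targets, had too few reads to test. KRT17, a keratin, had 14.5 and 15.2 CPM in NIPBLmut and 0.548 and 0.335 CPM in NIPBLwt (log2 fold change 5.06, SE 0.28, edgeR adjusted p = 0.0086). NTS, the neurotensin precursor, had 2.93 and 2.87 CPM in NIPBLmut and 0.29 and 0.736 CPM in NIPBLwt (2.50, adjusted p = 0.0437), and lost its call after the neighbour median was subtracted (2.45, adjusted p = 0.0576). CXCL8, the chemokine interleukin 8, had 31 and 20 counts in NIPBLmut and 2 and 1 in NIPBLwt, a depth-scaled ratio of 15.1 (exact 95% counting interval 4.88 to 75.6). Its call (edgeR adjusted p = 0.0373) was lost without NIPBLmut replicate 1 (adjusted p = 0.0791). Cyclin D1, CCND1, another classic target, had 43.8 and 36.0 CPM in NIPBLmut and 52.3 and 76.5 CPM in NIPBLwt and was not called.

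**Figure D5:**
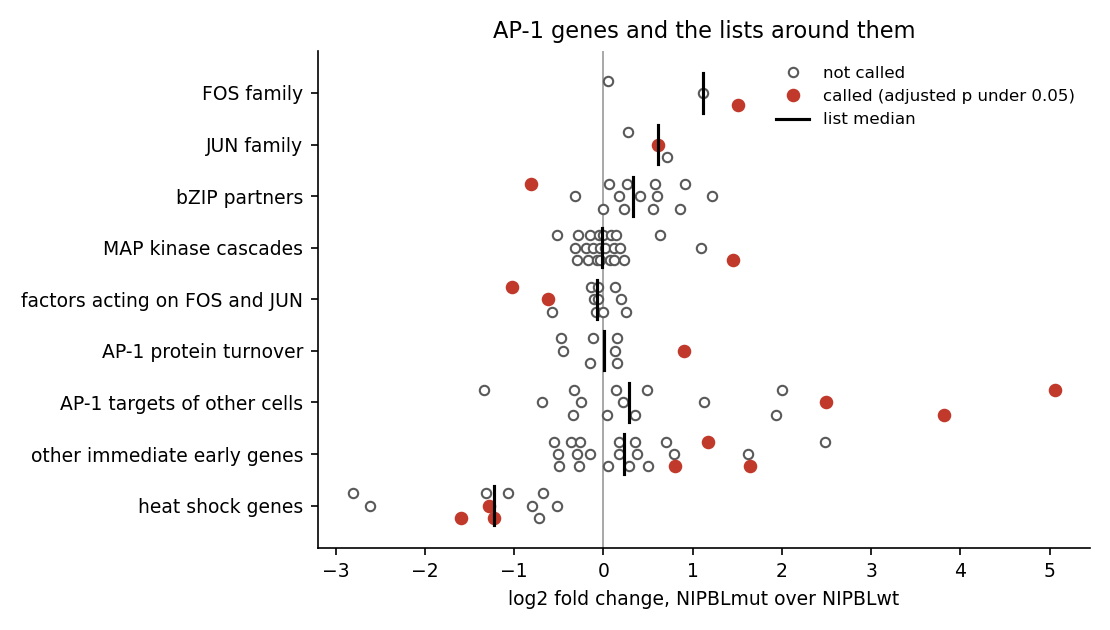
Log2 fold change (NIPBLmut over NIPBLwt) of each tested gene of the FOS and JUN families and of 7 surrounding lists, with genes called by edgeR filled in red and list medians as black bars. The FOS and JUN families lie at or above 0, MAP kinase genes centre on 0, and all heat shock genes lie below 0.

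Other immediate early genes were higher in part. All 22 listed were tested, with a median of 0.23. By edgeR 3 were called higher, beside 3.71% of all tested genes, and 0 lower, beside 2.1%. At an unadjusted p under 0.05 there were 6 higher, beside 15.9%, and 2 lower, beside 13.8%. DESeq2 called 4 higher, beside 6.82%, and limma 2, beside 4.31%, and both called 0 lower, beside 6.35% and 0.627%. EGR1, a zinc finger factor that responds to serum much as FOS does, had 4.97 and 7.12 CPM in NIPBLmut and 1.87 and 2.01 CPM in NIPBLwt (1.64, adjusted p = 0.0391). DUSP1, the phosphatase that switches off MAP kinases, had 38.5 and 45.4 CPM in NIPBLmut and 16.8 and 20.5 CPM in NIPBLwt (1.17, adjusted p = 0.0305). PPP1R15A, a stress-induced regulator of eIF2 alpha phosphorylation, had 33.1 and 38.1 CPM in NIPBLmut and 20.6 and 20.4 CPM in NIPBLwt (0.80, adjusted p = 0.0369). Among genes not called, JUNB, EGR2 and EGR3 were highest in NIPBLmut replicate 1, and FOSB, JUND and KLF6 in NIPBLmut replicate 2. For the called genes FOS, EGR1, DUSP1, PPP1R15A and JUN, NIPBLmut replicate 2 was the highest of the 4 libraries. EGR1 was not called without that library (1.36, edgeR adjusted p = 0.231), nor was PPP1R15A (0.69, adjusted p = 0.277), which also lost its call without NIPBLmut replicate 1 (0.89, adjusted p = 0.096) and after the neighbour median was subtracted (0.63, adjusted p = 0.0658). MYC was not called, with 57.5 and 65.0 CPM in NIPBLmut and 81.0 and 76.0 CPM in NIPBLwt (-0.36, adjusted p = 0.127).

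Heat shock genes, induced by another kind of stress, were called lower in part, and the NIPBLwt libraries differed in them. All 11 listed were tested, with a median of -1.22, and edgeR called 3 lower, beside 2.1% of all tested genes. At an unadjusted p under 0.05 there were 10 lower, beside 13.8%. DESeq2 called 8 lower, beside 6.35%, and limma 2, beside 0.627%. By any of these 0 were higher, beside 3.71% of all tested genes by edgeR. The other shares higher were 15.9% at an unadjusted p under 0.05, 6.82% by DESeq2 and 4.31% by limma. The summed level was 1180 and 1079 TPM in NIPBLmut and 1848 and 4137 TPM in NIPBLwt, so NIPBLwt replicate 2 stood far above NIPBLwt replicate 1. For the AP-1 genes, the log2 CPM of NIPBLwt replicate 2 minus that of replicate 1 was 0.23 for FOS, -0.99 for FOSB, 0.43 for FOSL2, -0.065 for JUN, 0.33 for JUNB and -0.10 for JUND. The part of this gap in the AP-1 differences was not tested. The 3 called heat shock genes were HSPA4L (-1.22, edgeR adjusted p = 0.0294), HSPD1 (-1.28) and HSPE1 (-1.59), and HSPD1 lost its call without NIPBLmut replicate 2 (-1.16, adjusted p = 0.0511). After the neighbour median was subtracted, neither HSPD1 (-0.70) nor HSPE1 (-1.01) was called.

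Genes whose level across the 4 libraries was most like that of FOS or JUN were found by Euclidean distance of centred log2 CPM among 11191 protein-coding genes of at least 5 CPM on average. Closest to FOS were NCOR1 (distance 0.204), KIAA0408 (0.267) and SLCO4C1 (0.321), and no gene lay within 0.2. NCOR1, which encodes a corepressor of nuclear receptors, had 375 and 432 CPM in NIPBLmut and 139 and 143 CPM in NIPBLwt. Closest to JUN were CEP112 (0.021), ZNF695 (0.035) and NR1D2 (0.044), with 272 genes within 0.2. With 4 libraries in 2 groups, such likeness mostly describes the size of the difference between genotypes.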

How the data were processed

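RNA was measured in 2 NIPBLmut and 2 NIPBLwt libraries of 293FT cells. Directional libraries were made from rRNA-depleted total RNA, per the labels' protocols. The submitters' processing notes name hg38, STAR 2.7.3a and RSEM 1.3.1; annotation release and strand setting are not given in the sources. Per the file headers, the authors deposited for each library expected counts, effective lengths (a length in bases, used as offsets and described) and TPM, and 57836 of the 58174 gene identifiers were found in GENCODE 29.

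Expected counts were rounded and tested with edgeR 4.0.16 (R 4.3.3; filterByExpr, TMM, robust quasi-likelihood, Benjamini-Hochberg over 18984 genes, called under 0.05), which was tested on simulated data. 1 count equalled 0.0287 to 0.0335 CPM. Log2 CPM used a prior count of 2. Alternatives were RLE or total count scaling, no filter, at least 1 CPM in 2 libraries, DESeq2 1.42.0, limma 3.58.1 on log2(TPM + 1) or log2(TPM + 0.1), effective length offsets, a replicate block, subtraction of the median fold change of 25 tested protein-coding genes on each side, and leaving out each library.

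The 7 members and all lists were chosen with earlier results of these data known. Named genes are the members, of each list up to 4 called genes in each direction by smallest p or else the member of smallest p, the 3 genes most like each called member, and NIPBL; other genes were named after their values were seen. Promoter sequences are RefSeq's. Nothing in the labels says that libraries came from separate cultures, so the p-values cover only the spread between the 4 samples, possibly a technical one.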

Additional observations from a re-analysis of the deposited data

How the results depend on the processing

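The number of AP-1 genes called higher was 2, and it was 1 with RLE scaling, 0 to 4 when each library was left out in turn, and 2 or 3 under the other alternatives. None of these called an AP-1 gene lower. FOS was called under 13 of 14 alternatives (1.29 to 1.70), JUN under 11 (0.54 to 0.87), JUND under 8, and FOSB and JUNB under 1 each. FOSL2 changed sign with the neighbour median subtracted (-0.34) and without NIPBLwt replicate 1 (-0.15, and 0.28 without replicate 2). Over all genes, 704 were called higher, against 1112 with total count scaling, 1132 with no filter, 1294 with DESeq2, 440 with the neighbour median subtracted and 338 to 5964 when each library was left out. Genes called lower numbered 399, against 786 with no filter, 1206 with DESeq2, 119 with limma on log2(TPM + 1), 167 with the neighbour median subtracted and 62 to 5763 when each library was left out. The median of all genes moved to 0.17 with total count scaling and to 0.12 and 0.18 on the TPM scales. The summed FOS family difference of 1.41 was 1.298 to 1.53 without single libraries and 0.68 in CPM, and the JUN family difference of 0.81 was 0.73 to 0.89 and 0.61. A fit that leaves out a library assumes that the lone sample varies like the other group, and the cause of these changes was not tested. Same-numbered libraries did not deviate together (r = -0.059 across genes, 2 pairs), so the numbers were not taken as pairs. With a replicate block, 1470 genes were higher and 809 lower, and 3 AP-1 genes were called, with JUND at 0.71 (edgeR adjusted p = 0.0221). Depth limits FOSL1, which had too few counts to test.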
